A study of Homo sapiens with 9 samples.

Results

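A set of 26 protein-coding genes was near silent in control MCF10A cells and detected in every library after knockdown of CHAF1B. The genes were chosen by their measured level, in CPM, the count of a gene relative to the total count of its library, after scaling by the trimmed mean of M-values (TMM). A gene had to lie under 0.3 CPM in each of 3 control libraries and at 0.6 CPM or more in each of 6 knockdown libraries. Matrix metalloproteinase genes and CSF2, TRPV3, CYTH4 and MPO were left out by name, which removed 6 genes that met both thresholds (CYTH4, MMP9, CSF2, MMP10, TRPV3 and MMP1). The 26 genes stood among 15062 protein-coding genes and 26186 genes in all. Because the levels selected the genes, the difference between knockdown and control is described below and was not tested.

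MCF10A is a line of human breast epithelial cells that does not form tumours. The cells were transduced with a lentivirus carrying a short hairpin RNA in the pLKO.1 vector, put under 2 µg/mL puromycin from 24 hours on, and collected for polyadenylated RNA on day 3 after infection. The 3 groups of 3 libraries were shGFP, a control hairpin against green fluorescent protein, and shCHAF1B-1 and shCHAF1B-2, which are separate hairpins against CHAF1B. All groups shared the vector, the selection and a medium with horse serum, insulin, cholera toxin, EGF and hydrocortisone. The libraries within a group are numbered in the labels, and nothing says that they came from separate cultures, so p-values measure the spread between these libraries, which may be technical.

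CHAF1B encodes a subunit of chromatin assembly factor 1 (CAF-1), the chaperone complex that deposits histones H3 and H4 on newly copied DNA. A silent gene is usually held in packed chromatin that has to be rebuilt after each round of replication. Known routes to stable silencing include Polycomb domains over developmental regulators, DNA methylation over germ-line promoters, and heterochromatin rich in H3K9me3 over zinc finger gene clusters. A further kind of silent gene has a promoter poor in CpG and is off because the factors of its own tissue are absent. Histone marks, DNA methylation and chromatin access were not analysed here, so chromatin class is described only by gene family, promoter sequence and position.

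CHAF1B stood at 35.2, 41.0 and 36.8 CPM in the shGFP libraries, at 2.55, 3.88 and 3.43 CPM with shCHAF1B-1, and at 2.65, 3.86 and 3.09 CPM with shCHAF1B-2. Totals ranged from 24339914 to 31819468 counts per library, and 3 counts corresponded to between 0.0961 and 0.127 CPM. The basal epithelial genes that mark MCF10A were present in all 9 libraries, with KRT5 between 3873 and 7625 CPM, TP63 between 71.2 and 81.5 CPM and CDH1 between 223 and 262 CPM, while the oestrogen receptor gene ESR1 lay between 0.806 and 1.44 CPM. The third shCHAF1B-1 library stood apart. In it, 22 genes of B lymphocytes summed to 285 CPM, against 7.93 to 10.2 CPM in the other 5 knockdown libraries and 6.26 to 8.62 CPM in shGFP. The B cell surface gene MS4A1 reached 105 CPM there and at most 0.580 CPM in any other library. The leukocyte gene PTPRC reached 31.3 CPM there and at most 0.245 CPM elsewhere. Several ratios, counts and hairpin differences that this library moved are given with and without it. A ratio or count given once uses all libraries and may have moved.

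The sequences in front of the transcription start were read from RefSeq promoter entries (GRCh38.p14), which matched 21 of the 26 genes. The 250 bases before the start are shown, 5′ to 3′, for 6 genes because their letters carry the features described further on: 5 hold the AP-1 motif TGANTCA and KPRP holds the TATA box motif TATAAA. Capitals mark the letters of these motifs on either strand, and all other bases are in lower case. The windows are chr19:35528312-35528561 (minus strand) for SBSN, chr19:38788950-38789199 (plus strand) for LGALS7B, chr1:16981584-16981833 (minus strand) for MFAP2, chr7:93890754-93891003 (minus strand) for TFPI2, chr11:1074624-1074873 (plus strand) for MUC2 and chr1:152757775-152758024 (plus strand) for KPRP.
SBSN: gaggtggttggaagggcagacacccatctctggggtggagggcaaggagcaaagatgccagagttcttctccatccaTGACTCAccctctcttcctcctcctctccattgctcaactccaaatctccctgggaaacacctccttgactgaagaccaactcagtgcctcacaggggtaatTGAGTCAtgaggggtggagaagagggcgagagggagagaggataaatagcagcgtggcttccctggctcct
LGALS7B: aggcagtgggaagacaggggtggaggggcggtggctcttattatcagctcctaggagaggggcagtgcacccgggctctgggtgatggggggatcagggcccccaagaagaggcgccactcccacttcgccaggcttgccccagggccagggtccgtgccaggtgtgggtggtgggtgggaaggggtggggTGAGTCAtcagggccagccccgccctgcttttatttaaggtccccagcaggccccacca
MFAP2: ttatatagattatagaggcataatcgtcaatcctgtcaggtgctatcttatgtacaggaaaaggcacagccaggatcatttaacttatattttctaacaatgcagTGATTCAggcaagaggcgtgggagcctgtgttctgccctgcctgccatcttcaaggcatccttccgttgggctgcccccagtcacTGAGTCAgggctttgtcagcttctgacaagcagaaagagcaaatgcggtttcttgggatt
TFPI2: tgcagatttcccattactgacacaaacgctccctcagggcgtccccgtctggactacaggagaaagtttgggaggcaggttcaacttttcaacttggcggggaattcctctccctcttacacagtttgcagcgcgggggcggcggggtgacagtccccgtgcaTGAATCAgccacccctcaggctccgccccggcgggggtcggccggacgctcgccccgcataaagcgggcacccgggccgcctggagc
MUC2: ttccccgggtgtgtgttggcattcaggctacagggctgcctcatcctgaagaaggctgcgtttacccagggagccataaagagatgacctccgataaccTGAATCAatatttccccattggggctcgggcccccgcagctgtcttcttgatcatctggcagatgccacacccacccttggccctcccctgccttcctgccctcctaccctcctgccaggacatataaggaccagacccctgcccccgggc
KPRP: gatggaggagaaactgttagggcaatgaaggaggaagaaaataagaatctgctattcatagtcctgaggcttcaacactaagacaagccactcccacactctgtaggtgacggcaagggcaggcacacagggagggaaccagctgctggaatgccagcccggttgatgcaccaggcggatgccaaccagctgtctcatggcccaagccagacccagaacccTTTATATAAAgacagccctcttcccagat

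Of the 15062 protein-coding genes, 2166 were near silent in shGFP, 147 of them with no count in any shGFP library. The 0.6 CPM floor was met in all shCHAF1B-1 libraries by 45 of the 2166 and in all shCHAF1B-2 libraries by 33. Both conditions held for 32 genes, which is 71.1% of the first list and 97.0% of the second, and 1.48% of all near-silent genes. The rule itself requires this overlap, and both hairpins were set against the same shGFP libraries. The floor was met by between 44 and 68 near-silent genes in each knockdown library except shCHAF1B-1 replicate 3, where 268 genes met it, 212 of them in no other library. The same thresholds in the opposite direction were met by 2 genes, CDH10, a cadherin, and ROBO2, an axon guidance receptor.

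Near silent did not mean without reads. The shGFP libraries held 0 to 19 counts per member in all, with a median of 12, and 25 of the 26 genes had at least 1 count. Summed over the 26 genes, the level was 2.74, 4.22 and 3.64 CPM in the shGFP libraries and between 40.5 and 57.2 CPM in the knockdown libraries. With each shGFP library set at no less than 3 counts, the ratio of the mean knockdown level to the mean shGFP level ran from 3.72 to 30.6 with a median of 9.54, and 11 genes had a ratio of 10 or more. Without shCHAF1B-1 replicate 3 the range was 3.63 to 28.8, the median 8.64 and the number at 10 or more 10. The levels reached were low: the mean over the knockdown libraries exceeded 2 CPM in 8 genes and was under 1 CPM in 5, and without shCHAF1B-1 replicate 3 in 6 and 6. Per kilobase of exon, the mean knockdown level ran from 0.0490 to 2.07 RPKM (CPM divided by exon length in kilobases) with a median of 0.319 RPKM. In bulk RNA, a low level in all cells and a higher level in a few cells cannot be told apart.

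**Figure D1:**
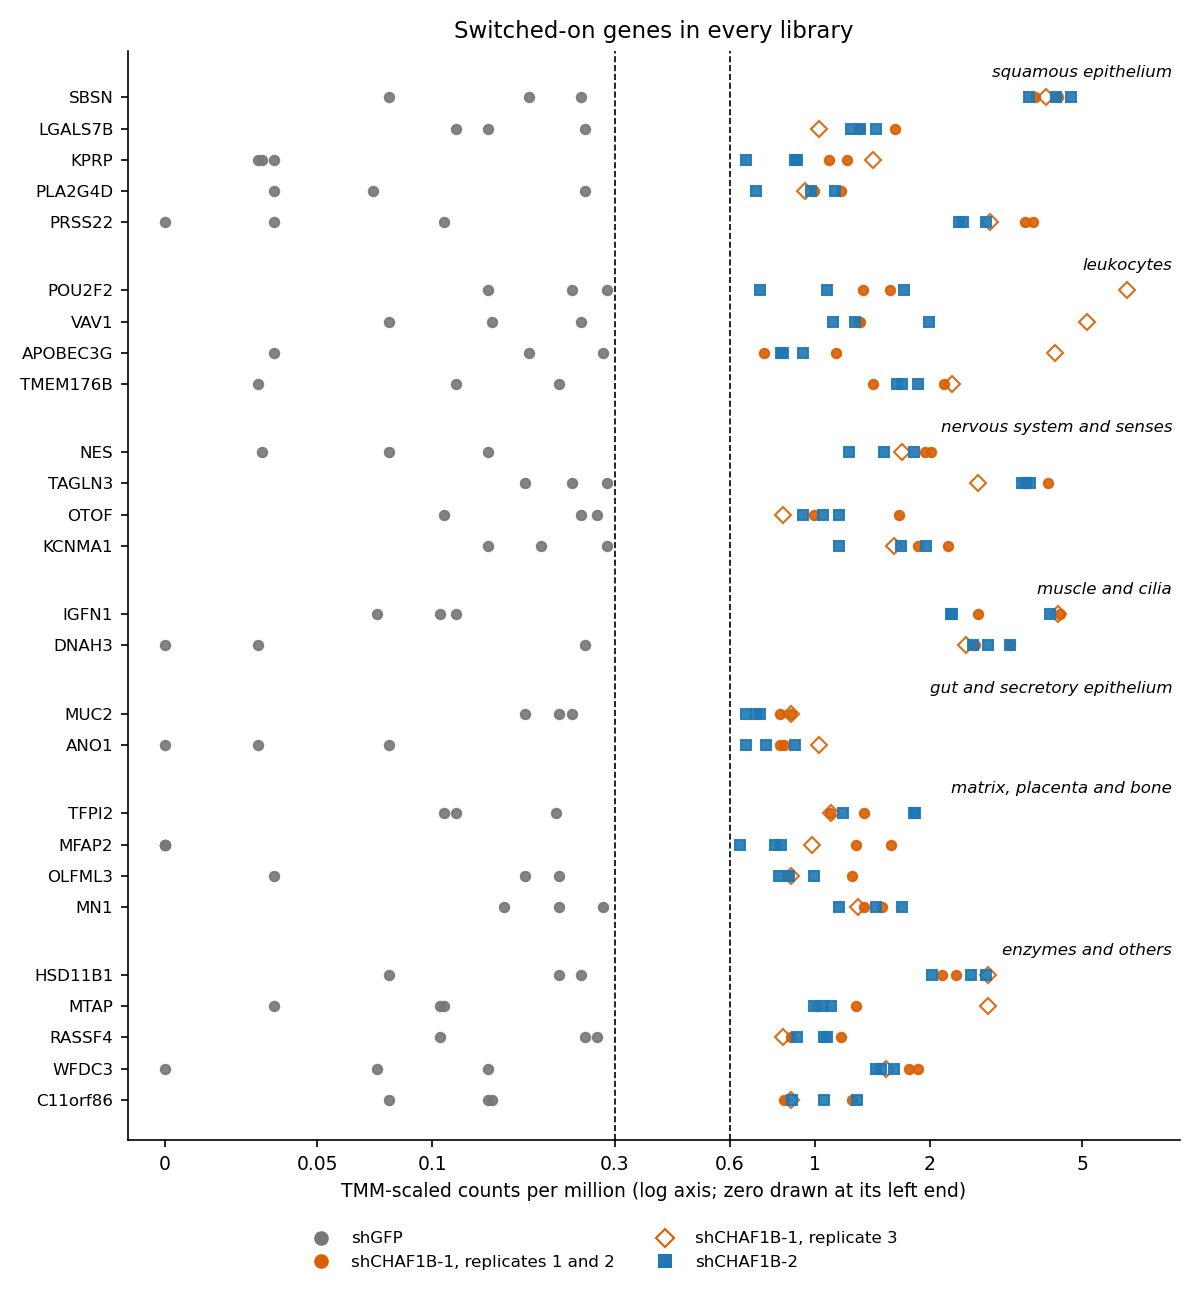
TMM-scaled CPM of the 26 genes in each of the 9 libraries on a log axis, 1 point per library, with genes grouped by the tissue or role they are known for and dashed lines at 0.3 and 0.6 CPM. The open diamonds of shCHAF1B-1 replicate 3 lie well to the right of the other points for POU2F2, VAV1, APOBEC3G and MTAP, and zero counts are drawn at the left end.

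The 26 genes did not belong to a single tissue. By what they are known for, 5 are genes of squamous or surface epithelium, 4 of leukocytes and 4 of the nervous system and senses. A further 2 are of muscle or cilia, 2 of gut and secretory epithelium and 4 of matrix, placenta or bone. The other 5 are enzymes or further genes that were given no tissue here. This grouping was made from general knowledge after the values were seen. No group was large enough for any one tissue to make up most of the set.

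Among the genes of surface epithelium, SBSN encodes suprabasin, a secreted protein of the upper epidermal layers, and lies on chr19:35523367-35528351. Its level was 0.0771, 0.179 and 0.245 CPM in shGFP, 3.76, 4.32 and 4.02 CPM with shCHAF1B-1 and 4.27, 3.62 and 4.66 CPM with shCHAF1B-2. The 6 knockdown values were close to each other (coefficient of variation 9.36%, the smallest of the 26), and the ratio of the group levels was 24.2 (95% counting interval 14.3 to 44.5). Per kilobase, SBSN had the highest knockdown level of the set, 2.07 RPKM. PRSS22, a secreted serine protease on chr16:2852727-2858170, stood at 0.0386, 0.107 and 0 CPM in shGFP, at 3.72, 3.56 and 2.88 CPM with shCHAF1B-1 and at 2.44, 2.38 and 2.80 CPM with shCHAF1B-2. All 3 values with the second hairpin were below all 3 with the first, and the ratio of the group levels was 61.5 (counting interval 23.9 to 227). With 4 shGFP counts in all, that ratio became 163 without shGFP replicate 2 and 40.2 without shGFP replicate 3. LGALS7B encodes galectin-7, a lectin of stratified epithelia, and was measured at 0.116, 0.250 and 0.140 CPM in shGFP, 1.62, 1.31 and 1.02 CPM with shCHAF1B-1 and 1.24, 1.44 and 1.31 CPM with shCHAF1B-2. Its near-identical copy LGALS7 was at 0.170 CPM or less in every library, and how the counting divided reads between the copies is not given in the sources used here. KPRP, a proline-rich protein of keratinocytes in the epidermal differentiation complex, had 1 count in each shGFP library (0.0386, 0.0358 and 0.0350 CPM), then 1.21, 1.09 and 1.42 CPM with shCHAF1B-1 and 0.663, 0.896 and 0.890 CPM with shCHAF1B-2. Its ratio of 28.4 had a counting interval of 9.55 to 139, which shows how little 3 counts fix a control level. PLA2G4D, a phospholipase A2 known from inflamed epidermis, averaged 0.120 CPM in shGFP and 1.04 and 0.936 CPM with the hairpins.

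In 3 of the 4 leukocyte genes, and in the enzyme gene MTAP described further on, a single library set most of the spread. POU2F2 encodes Oct-2, a transcription factor of B cells, and stood at 0.231, 0.286 and 0.140 CPM in shGFP, at 1.34, 1.57 and 6.54 CPM with shCHAF1B-1 and at 1.08, 1.71 and 0.721 CPM with shCHAF1B-2. VAV1, a guanine nucleotide exchange factor of blood cells, was measured at 0.0771, 0.143 and 0.245 CPM in shGFP, 1.30, 1.31 and 5.16 CPM with shCHAF1B-1 and 1.12, 1.99 and 1.27 CPM with shCHAF1B-2. APOBEC3G, a cytidine deaminase that restricts retroviruses, was at 0.0386, 0.179 and 0.280 CPM, then 1.13, 0.737 and 4.26 CPM, then 0.828, 0.818 and 0.933 CPM in the same order. In POU2F2, VAV1 and APOBEC3G the value of shCHAF1B-1 replicate 3, the library with high B lymphocyte genes, was more than 2 times the next highest, and the part of the B lymphocyte genes in this was not tested. The ratio to shGFP, with shGFP at no less than 3 counts per library, also moved without that library. It was 5.85 in place of 9.85 for POU2F2, 8.32 in place of 12.1 for VAV1 and 4.64 in place of 7.57 for APOBEC3G. The other 5 knockdown libraries all stayed above the 0.6 CPM floor, as the rule requires of every member. In these libraries the 22 B lymphocyte genes summed to the 7.93 to 10.2 CPM given above. The list was not uniform there: CD79A was at most 0.160 CPM. FCRLA, a B cell gene related to Fc receptors, averaged 0.472 ± 0.244 CPM in shGFP and 1.81 ± 0.207 CPM with shCHAF1B-2 (SD, n = 3). CR2 of the same list averaged 1.39 ± 0.328 CPM in shGFP and 0.572 ± 0.0703 CPM with shCHAF1B-2. Of the 6 list genes tested against shGFP (edgeR, adjusted p under 0.05), 1 rose and 1 fell, with or without shCHAF1B-1 replicate 3. TMEM176B, a membrane protein of dendritic cells and macrophages, did not follow that library: it was at 0.116, 0.215 and 0.0350 CPM in shGFP, 1.42, 2.18 and 2.29 CPM with shCHAF1B-1 and 1.86, 1.64 and 1.70 CPM with shCHAF1B-2.

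Genes of the nervous system and senses came next. TAGLN3 encodes a neuronal relative of transgelin, and its level was 0.231, 0.286 and 0.175 CPM in shGFP, 3.56, 4.07 and 2.68 CPM with shCHAF1B-1 and 3.48, 3.66 and 3.56 CPM with shCHAF1B-2. NES encodes nestin, the intermediate filament of neural progenitors, and was at 0.0771, 0.0358 and 0.140 CPM in shGFP, 1.94, 2.02 and 1.69 CPM with shCHAF1B-1 and 1.82, 1.52 and 1.23 CPM with shCHAF1B-2. OTOF encodes otoferlin, the calcium sensor for transmitter release in inner hair cells, and was at 0.270, 0.107 and 0.245 CPM, then 1.66, 0.993 and 0.827 CPM, then 1.16, 1.05 and 0.933 CPM in the same order. KCNMA1, the pore-forming subunit of the BK potassium channel, averaged 0.206 CPM in shGFP and 1.90 and 1.60 CPM with the hairpins. Its exons are the longest of the set, so that per kilobase it was the lowest, at 0.0490 RPKM. In none of these 4 genes did a knockdown library reach down to the shGFP range, as the rule requires.

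IGFN1 and DNAH3 are known from muscle and from motile cilia. IGFN1, an immunoglobulin and fibronectin domain protein of skeletal muscle, stood at 0.116, 0.0715 and 0.105 CPM in shGFP, 2.67, 4.39 and 4.33 CPM with shCHAF1B-1 and 2.28, 4.13 and 2.29 CPM with shCHAF1B-2. It had the highest ratio of the set with the shGFP floor, 30.6, and 35.2 without it (counting interval 17.7 to 81.9). DNAH3, a heavy chain of the axonemal dynein motor, was at 0, 0.250 and 0.0350 CPM in shGFP, 2.63, 3.24 and 2.48 CPM with shCHAF1B-1 and 3.23, 2.84 and 2.59 CPM with shCHAF1B-2. Of the 8 shGFP counts of DNAH3, 7 came from shGFP replicate 2. DNAH3 overlaps TMEM159 on the opposite strand (mean 20.6 CPM with shGFP and 24.4 CPM after knockdown), and the library kit does not mark strand, so that reads from the overlap cannot be assigned to either gene.

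For the gut and secretory epithelium, MUC2 encodes the gel-forming mucin of the intestine. It stood at 0.231, 0.215 and 0.175 CPM in shGFP, 0.810, 0.865 and 0.867 CPM with shCHAF1B-1 and 0.663, 0.701 and 0.721 CPM with shCHAF1B-2. Its ratio of 3.76 (counting interval 2.25 to 6.67) was the lowest of the set, and its values with the second hairpin were again all below those with the first. ANO1, a calcium-activated chloride channel of secretory epithelia, had 3 counts over the shGFP libraries and averaged 0.889 and 0.766 CPM with the hairpins, a ratio of 22.7 with a counting interval of 7.61 to 112. It became 46.8 without shGFP replicate 1 and 15.03 without shGFP replicate 2.

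Among genes of matrix, placenta and bone, TFPI2 encodes a Kunitz-type protease inhibitor abundant in placenta. It stood at 0.116, 0.107 and 0.210 CPM in shGFP, 1.09, 1.35 and 1.103 CPM with shCHAF1B-1 and 1.82, 1.83 and 1.19 CPM with shCHAF1B-2. MFAP2, a microfibril component of elastic fibres, had no count in the 3 shGFP libraries and was at 1.58, 1.28 and 0.985 CPM with shCHAF1B-1 and at 0.787, 0.818 and 0.636 CPM with shCHAF1B-2. Taking 3 counts per shGFP library as the limit, its knockdown level was at least 9.28-fold higher. OLFML3, a secreted matrix protein, averaged 0.143 CPM in shGFP and 0.989 and 0.886 CPM with the hairpins. MN1, a transcriptional coregulator of cranial bone development, averaged 0.216 CPM in shGFP and 1.38 and 1.43 CPM with the hairpins.

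HSD11B1 encodes the enzyme that turns cortisone into cortisol. Its level was 0.0771, 0.215 and 0.245 CPM in shGFP, 2.15, 2.34 and 2.84 CPM with shCHAF1B-1 and 2.57, 2.03 and 2.80 CPM with shCHAF1B-2. MTAP, an enzyme of methionine salvage on chr9:21802543-21937651, was at 0.0386, 0.107 and 0.105 CPM in shGFP, 1.01, 1.28 and 2.84 CPM with shCHAF1B-1 and 0.994, 1.05 and 1.102 CPM with shCHAF1B-2. The MTAP ratio to shGFP, with shGFP at no less than 3 counts per library, was 12.6, and 9.95 without shCHAF1B-1 replicate 3. MCF10A is known for a deletion that takes in CDKN2A, which lies 30.1 kb from MTAP. Whether that deletion also takes in MTAP was not tested, so the low shGFP level of MTAP is not read as silencing. CDKN2A had no count in shGFP, 15 counts (0.591 CPM) in shCHAF1B-1 replicate 3 and at most 0.0414 CPM in the other knockdown libraries, so that MTAP and CDKN2A were both highest in the library with high B lymphocyte genes, whose part in that MTAP value was not tested. WFDC3, of the whey acidic protein domain family, stood at 0, 0.0715 and 0.140 CPM in shGFP, 1.86, 1.76 and 1.54 CPM with shCHAF1B-1 and 1.49, 1.44 and 1.61 CPM with shCHAF1B-2. C11orf86 was at 0.0771, 0.143 and 0.140 CPM, then 1.25, 0.833 and 0.867 CPM, then 0.870, 1.29 and 1.06 CPM in the same order. RASSF4, a protein with a Ras association domain, averaged 0.208 CPM in shGFP and 0.955 and 1.01 CPM with the hairpins. It overlaps DEPP1 on the opposite strand, and the mean of DEPP1 was 0.375 CPM with shGFP and 25.4 CPM after knockdown, so RASSF4 reads cannot be told apart from DEPP1 reads where the genes overlap.

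The thresholds cut through a continuous range. The 3 genes just under the shGFP ceiling were POU2F2, TAGLN3 and KCNMA1, each with a highest shGFP value of 0.286 CPM. Just above it lay SYNGR3 and IL16 at 0.308 CPM and IL11 at 0.315 CPM, which met the knockdown floor. The 3 genes just over the knockdown floor were MFAP2, ANO1 and MUC2, with lowest knockdown values of 0.636, 0.662 and 0.663 CPM. Just under it lay MALL at 0.591 CPM and ACP5 and ACSBG1 at 0.580 CPM.

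The members could differ between the hairpins only so far, because the rule asked the same floor of both and removed near-silent genes that reached it with one hairpin alone. Their differences, shCHAF1B-2 minus shCHAF1B-1 on the log2 scale, are therefore described and not tested. They come from a fit of all 9 libraries over 16235 genes with edgeR's quasi-likelihood test, in which all 26 members passed the filter on low counts. Over all genes this test called 0 (0%), with 1800 at an unadjusted p under 0.05. That number was between 1118 and 2799 when 1 knockdown library was left out. DESeq2 and limma-voom also called 0. The median difference was -0.19 over the members and -0.01 over all genes tested. For 20 members the 95% interval lay within 1 log2 unit of zero on either side, and SBSN differed by 0.05 (-0.28 to 0.37).

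The members furthest below zero were POU2F2 at -1.40 (95% interval -2.53 to -0.27), APOBEC3G at -1.22 (-2.39 to -0.06), VAV1 at -0.80 (-1.80 to 0.20), MFAP2 at -0.77 (-1.33 to -0.21), MTAP at -0.69 (-1.41 to 0.02) and KPRP at -0.59 (-1.06 to -0.13). Without shCHAF1B-1 replicate 3, the difference was -0.31 for POU2F2, -0.10 for APOBEC3G, 0.17 for VAV1, -0.92 for MFAP2, -0.14 for MTAP and -0.49 for KPRP. In MFAP2, KPRP, PRSS22 and MUC2 the libraries of the second hairpin all lay below those of the first. How many of all genes tested separate in this way was not counted, so this is not read as a trait of these members. The fitted difference was below zero for 17 of the 26 members in the fit of all libraries, and for 19 without shCHAF1B-1 replicate 3. The share of all genes tested that lay below zero was not counted, so neither number is read as a trait of the members.

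**Figure D2:**
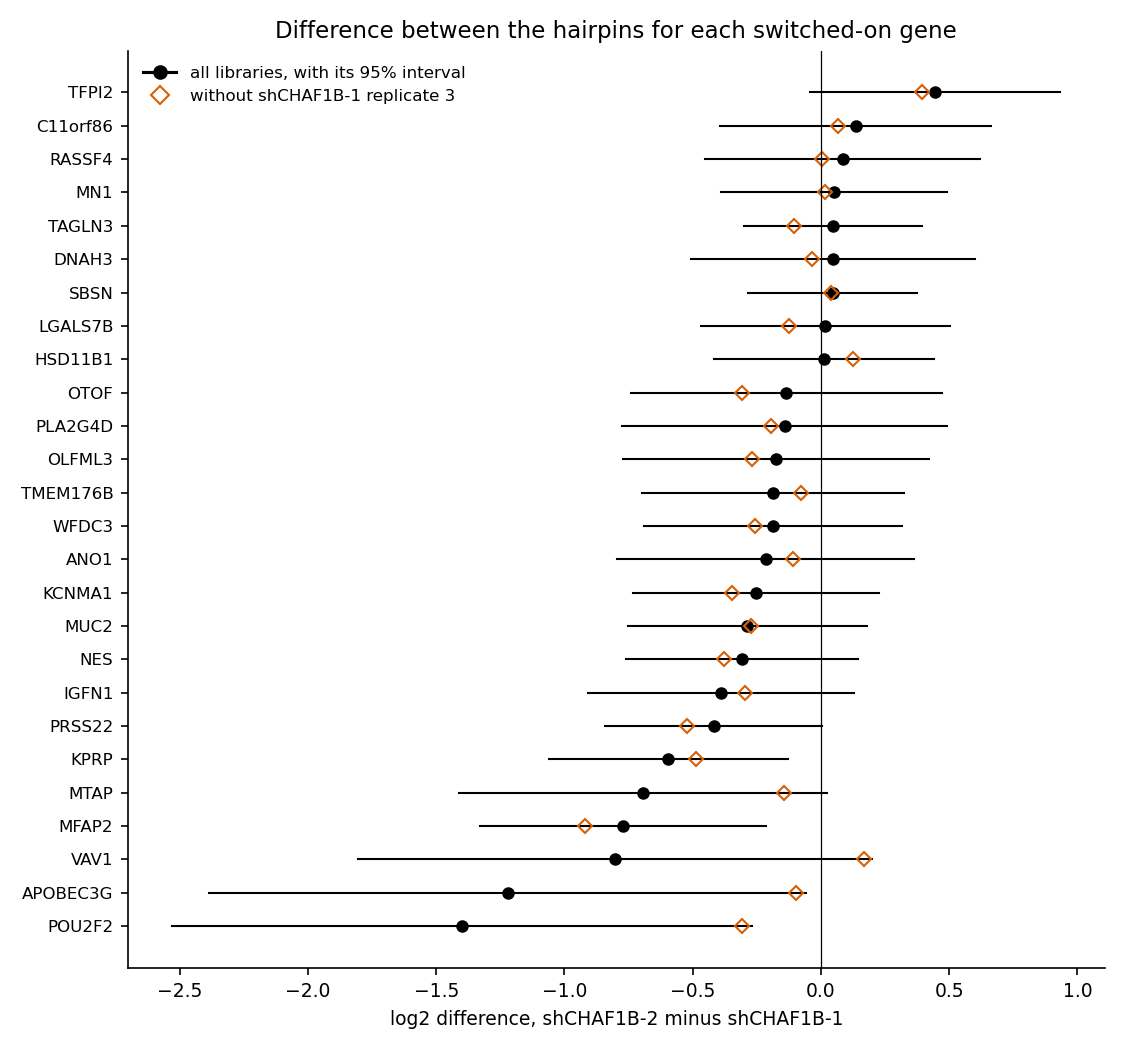
Log2 difference between the hairpins, shCHAF1B-2 minus shCHAF1B-1, for each of the 26 genes. Filled points with bars show the fit of all libraries and its 95% interval, and open diamonds the fit without shCHAF1B-1 replicate 3, which move toward zero for POU2F2, APOBEC3G and MTAP and past it for VAV1.

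Membership in tissue lists was counted next. In all, 21 lists of tissue genes held 672 protein-coding genes of the table, of which 349 were near silent in shGFP and 8 were members. These were SBSN and PRSS22 on the skin and squamous list and 1 gene each on the lists of leukocyte signalling (VAV1), muscle (IGFN1), neurons (OTOF), cilia (DNAH3), gut (MUC2) and placenta (TFPI2). The share of near-silent list genes that met the rule was 2.29%, beside 1.48% of all near-silent genes, which is close to that background. Most near-silent genes of the tissue lists stayed under the floor in at least 1 knockdown library. The rule was met by 0 of 32 genes on the liver list, 0 of 25 on the germ-line list and 0 of 15 on the B lymphocyte list. It was also met by 0 of 29 on the list of secreted cytokines and growth factors. CSF2, a cytokine that is not on that list, met both thresholds and was left out by name. The members were spread over 7 of the 21 lists, with no list holding more than 2. Each list holds only part of the genes of its tissue. LGALS7B, KPRP, PLA2G4D, NES, TAGLN3, MFAP2 and HSD11B1 were on none of the 21, so a count of 0 describes a list and not a tissue.

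**Figure D3:**
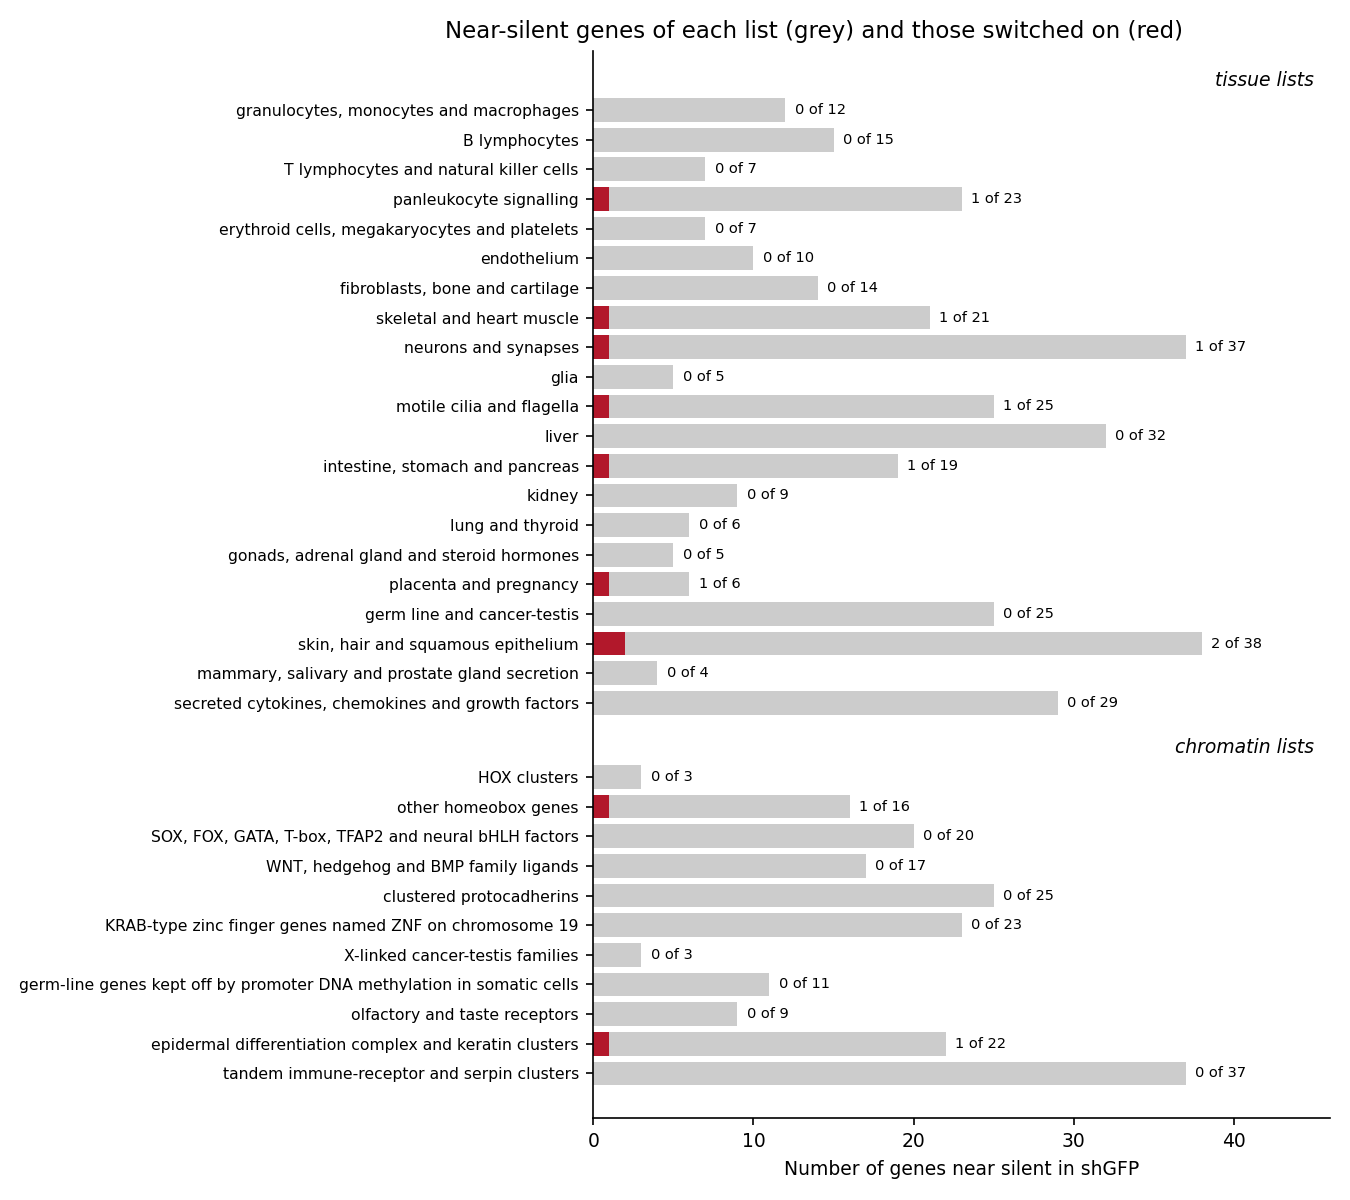
Number of near-silent protein-coding genes on each tissue list and each chromatin list, with the genes that met both thresholds in red. The largest red count is 2 of 38 on the skin list, and most lists have none.

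The wider lists moved more than the switched-on genes alone show, by edgeR's quasi-likelihood test of the mean of both hairpins against shGFP. Over all 16235 genes tested, 29.2% rose and 27.7% fell at an adjusted p under 0.05. Of 37 skin and squamous genes tested, 17 rose and 9 fell, with a median log2 change of 0.18. PADI3, an enzyme that citrullinates hair and skin proteins, averaged 0.243 ± 0.0741 CPM in shGFP (SD, n = 3) and 4.03 ± 0.387 and 3.66 ± 0.672 CPM with the hairpins, and ABCA12, the lipid transporter of the skin barrier, rose by 0.60 (SE 0.0461, edgeR adjusted p = 1.2e-07). Of 26 leukocyte signalling genes, 15 rose and 2 fell, with a median of 1.17, and without shCHAF1B-1 replicate 3 the counts were 17 and 3. The median was not computed without that library. ITGB2, the integrin chain of leukocytes, rose from 19.6 ± 1.51 CPM to 85.6 ± 4.83 and 74.9 ± 2.53 CPM. On the same list, PSTPIP2 fell from 75.5 ± 3.69 CPM to 42.2 ± 0.540 and 40.7 ± 1.75 CPM. INPP5D fell from 165 ± 5.02 CPM to 101 ± 4.27 and 99.6 ± 1.32 CPM. In shCHAF1B-1 replicate 3 the summed level of the 45 leukocyte signalling genes was 933 CPM, against 579 to 610 CPM in the other knockdown libraries and 557 to 574 CPM in shGFP. Of 39 neuronal genes tested, 16 rose and 8 fell (median 0.25), among them NTSR1, the neurotensin receptor, which rose by 2.85 (SE 0.126, edgeR adjusted p = 4.4e-10). The cilia list had 8 of 31 up and 5 down, the muscle list 4 of 15 up and 4 down, the gut list 5 of 8 up and none down, and the placenta list 3 of 6 up and 2 down. These shares include the members themselves and are counts, not tests of the lists. Without shCHAF1B-1 replicate 3, 15 of 38 skin and squamous genes tested rose and 9 fell. Of 40 neuronal genes, 15 then rose and 9 fell. The cilia list then had 8 of 34 up and 7 down, and the muscle list 4 of 16 up and 4 down. The placenta list had 2 of 6 up and 2 down, and the gut counts stayed the same.

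Chromatin class was approached through gene families known for a kind of silencing. The 11 lists held 643 genes, 186 of them near silent, and 2 members: POU2F2 among homeobox genes and KPRP in the epidermal differentiation complex. That is 1.08% of the near-silent genes on these lists, beside 1.48% of all near-silent genes. No member was a HOX gene (0 of 3 near silent), a SOX, FOX, GATA or T-box factor (0 of 20), a WNT, hedgehog or BMP ligand (0 of 17), a clustered protocadherin (0 of 25), a ZNF gene of chromosome 19 (0 of 23), or a germ-line gene kept off by promoter methylation (0 of 11). POU2F2 is a homeobox gene of the POU family and a factor of mature B cells, so it reached the list by its domain.

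The expressed members of the same families changed in both directions. Of 50 homeobox genes outside the HOX clusters tested, 9 rose and 19 fell (median -0.23), and NKX1-2, a homeobox factor, changed by -2.07 (SE 0.130, edgeR adjusted p = 1.4e-08). Of 19 HOX genes 7 rose and 2 fell, and of 25 WNT, hedgehog and BMP ligands 14 rose and 4 fell. Of 184 ZNF genes of chromosome 19, the family tied to H3K9me3 domains, 28 rose and 36 fell with a median of -0.03. Of the germ-line genes kept off by promoter methylation only 4 were tested, of which 2 rose and 1 fell. Of 47 genes of the epidermal differentiation complex and keratin clusters, 21 rose and 11 fell (median 0.15). The calcium-binding genes S100A3, S100A4 and S100A13 rose by 1.72, 1.54 and 1.35. Without shCHAF1B-1 replicate 3, 9 of 50 homeobox genes rose and 17 fell, and 25 of 184 ZNF genes rose and 35 fell. Of the 25 ligands 15 then rose and 4 fell, and of 48 genes of the complex and keratin clusters 22 rose and 11 fell.

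Most promoters of the members were poor in CpG. Over a 300-base window from 250 bases before to 50 bases after the start, a promoter was called high in CpG when its observed over expected CpG ratio was above 0.75 and its GC content above 55%, and low when the ratio was under 0.48. Of the 21 members with an entry, 14 were low (66.7%), 2 were intermediate (NES and MTAP) and 5 were high (TFPI2, WFDC3, ANO1, RASSF4 and KCNMA1). Of 9667 promoters of genes at 1 CPM or more in shGFP, 10.8% were low and 64.7% high, and of all 27305 RefSeq promoters 45.2% were low and 35.1% high. The median CpG ratio was 0.360 for the members, 0.849 for expressed genes and 0.580 for all promoters. Near-silent genes that did not meet the rule are the set most like the members, and of the 1563 with an entry 50.3% were low and 25.6% high, with a median ratio of 0.467. Only 73.2% of that set had an entry and the shares were not tested. No conclusion is drawn from this comparison, and low CpG content is not called particular to the members. The ratio ran from 0.136 for HSD11B1 and 0.139 for KPRP to 0.982 for KCNMA1, with SBSN at 0.177 and VAV1 at 0.380. For POU2F2, ANO1, KPRP, MFAP2 and KCNMA1 the RefSeq start lay over 500 bases from the GENCODE gene start, and among the other 16 members 11 were low.

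**Figure D4:**
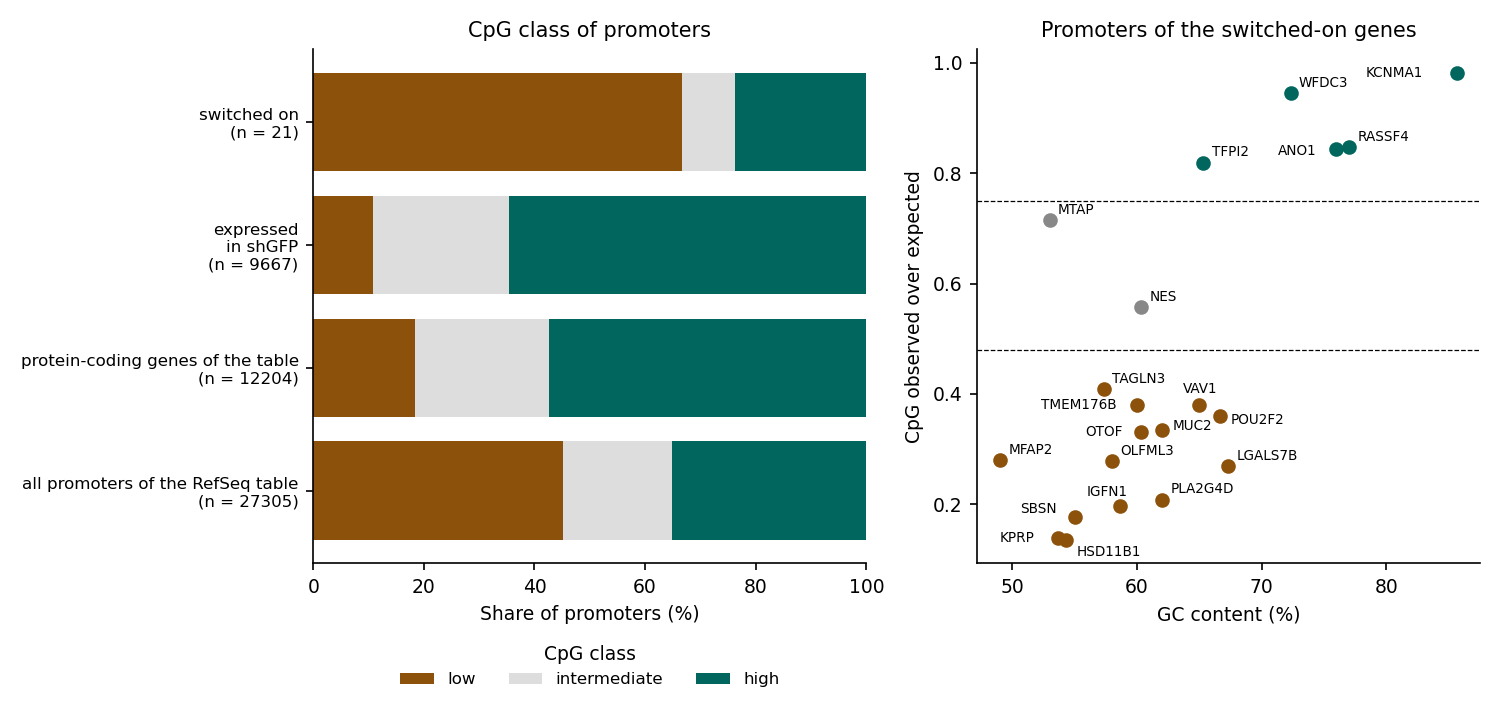
Left, share of promoters in each CpG class for the switched-on genes, genes at 1 CPM or more in shGFP, all protein-coding genes and all RefSeq promoters. Near-silent genes that did not meet the rule (50.3% low) are not drawn. Right, GC content and CpG ratio of the 21 switched-on promoters, with dashed lines at 0.48 and 0.75; 14 points lie under the lower line.

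The AP-1 motif TGANTCA, read on both strands, was present in 5 of the 21 windows (23.8%): SBSN, LGALS7B, MFAP2, TFPI2 and MUC2, whose sequences are printed above. It was found in 7.76% of all 27305 promoters and in 4.46% of those of expressed genes. Among the 1563 of near-silent genes that did not meet the rule the share was 8.13%. Only 73.2% of that set had an entry, so no conclusion is drawn from the comparison with it here either. SBSN and MFAP2 held 2 copies each. Choosing the RefSeq entry nearest to the GENCODE start made it 4 of 21 (19.05%). AP-1, the FOS and JUN dimer, is a factor of stress and growth signalling, and a match is a description of letters only. The TATA box motif TATAAA was in 3 windows, those of KPRP, PLA2G4D and MTAP (14.3% against 11.95% of all promoters). The match lay 215 bases before the start in MTAP, 31 in PLA2G4D, and 29 and 25 in KPRP. GGAATG of TEAD factors was in 3 windows (14.3% against 14.0%) and AGATAA of GATA factors in 2 (9.52% against 10.5%). TGTGGT of RUNX factors was in 1 (4.76% against 13.1%) and TTGCNNAA of C/EBP factors in 1 (4.76% against 10.6%). For NF-kB, only a narrow form of the kB site was searched, and that form was in none of the 21 and in 0.579% of all promoters. Other forms of the kB site were not searched, so these windows are not shown to lack it. No motif but that of AP-1 was more than 2 times as frequent in the members as in all promoters, and with 21 windows a single gene moves a share by several percent.

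The members lay on 12 chromosomes, 6 on chromosome 1, 4 on chromosome 19 and 3 on chromosome 11. The closest pair of members was ANO1 and C11orf86, 3.10 Mb apart, so none were direct neighbours of each other. WFDC3 lay 0.217 Mb from MMP9, which met the same thresholds and was left out by name. Each gene has 2 nearest protein-coding neighbours that do not overlap it, and of the 52 neighbours 23 were at 1 CPM or more in shGFP (44.2%), against 58.4% for near-silent genes that did not meet the rule and 67.3% for expressed genes. Of the 27 neighbours tested, 16 rose (59.3%) and 4 fell (14.8%), with a median log2 change of 0.24. For neighbours of near-silent genes that did not meet the rule, 36.7% rose and 30.0% fell, with a median of 0.03. This difference in shares was not tested.

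The largest changes among neighbours were of genes that were themselves low in shGFP. AOC1, a diamine oxidase 23.3 kb from TMEM176B, rose from a mean of 0.506 to 6.03 CPM (log2 change 3.55, SE 0.159, edgeR adjusted p = 5.0e-10). SYT12, a synaptotagmin 29.8 kb from C11orf86, rose from 3.57 to 19.7 CPM, and CRABP2, the retinoic acid carrier 22.2 kb from NES, from 3.29 to 15.95 CPM. IFNE, an epithelial interferon 320 kb from MTAP, rose from 0.330 to 1.42 CPM (log2 change 2.10, SE 0.290, edgeR adjusted p = 3.2e-05). DLG5, next to KCNMA1, fell from 353 to 214 CPM, and LYRM1, next to DNAH3, from 24.0 to 16.5 CPM. Without shCHAF1B-1 replicate 3, 15 neighbours rose and 4 fell.

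**Figure D5:**
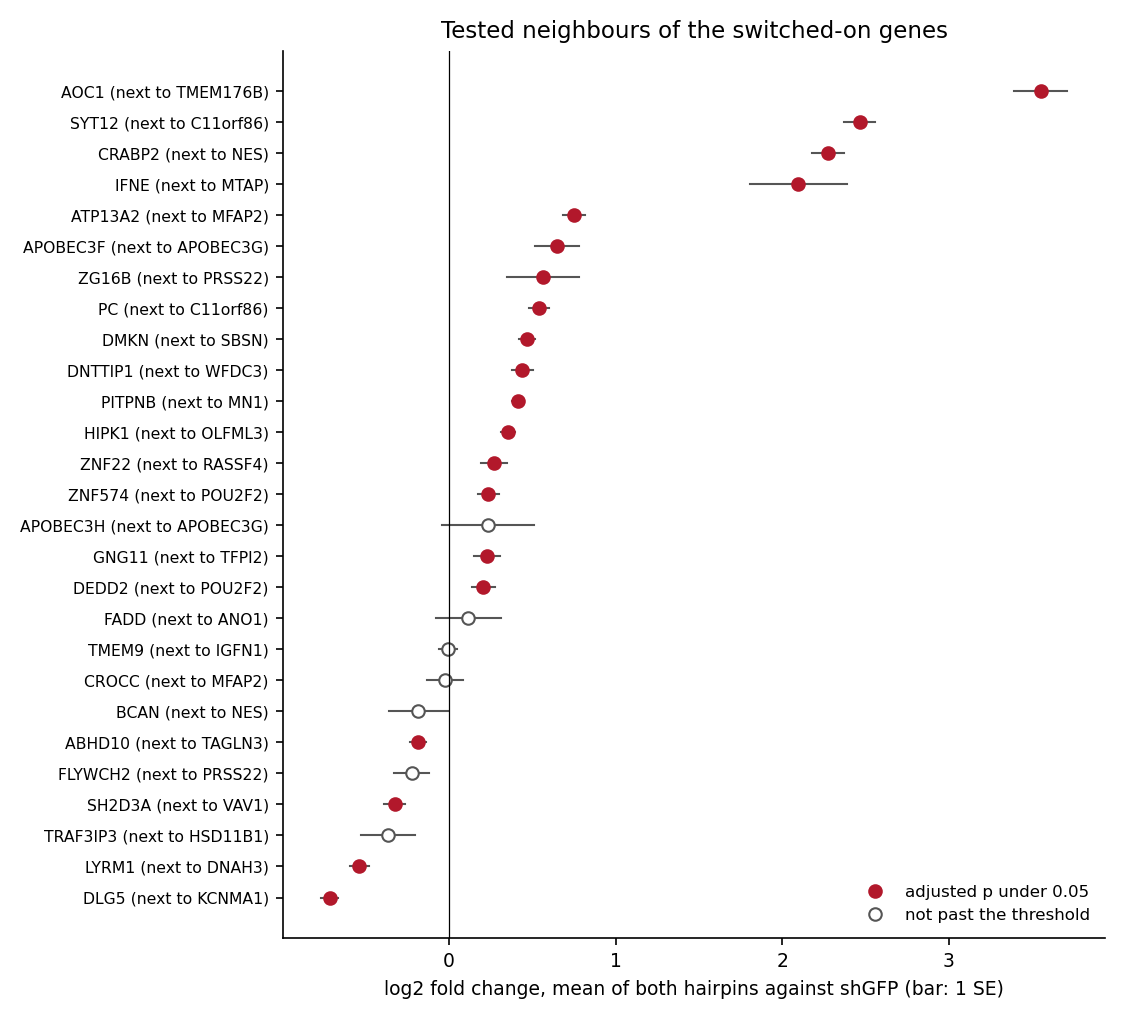
Log2 fold change of the 27 tested neighbours of the switched-on genes, mean of both hairpins against shGFP, with bars of 1 standard error and filled points for an adjusted p under 0.05. AOC1, SYT12, CRABP2 and IFNE lie above 2, and the other neighbours lie between -0.72 and 0.75.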

How the data were processed

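Raw counts per gene, whole numbers with no normalization, are what the authors deposited for the 9 libraries. Tools listed in the submitters' processing notes are HTSeq 0.8.0, STAR 2.5.3a and DESeq2 1.18.1. The same notes list mm10 as well as hg38 without saying what each served for, and every matched identifier is human. The labels' protocols give the TruSeq RNA kit, version 2, which does not mark strand. The table held 26186 genes with a lowest total of 7 counts; 26149 matched GENCODE release 29 by identifier without version. No row was left without a gene.

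Counts were scaled with TMM in edgeR 4.0.16 (R 4.3.3) and filtered by its filterByExpr function (at least 10 counts, a total of 15, proportion 0.7), leaving 16235 genes. All 9 libraries entered 1 quasi-likelihood fit that had only the group as a term. Its contrasts were shCHAF1B-2 minus shCHAF1B-1, and both hairpins averaged minus shGFP, with Benjamini-Hochberg adjustment over all genes and a threshold of 0.05 (7.2 prior degrees of freedom, 6.24% biological coefficient of variation). The script was tested on simulated data. Ratios have exact conditional Poisson intervals, which cover counting error only, since reads are not independent molecules. RPKM used the merged exon length.

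The members and lists were chosen with earlier results of these data known. Values in every library were given for the 10 members with the highest knockdown RPKM, the 10 with the highest ratio, every member on a list and CHAF1B; the few others shown so (APOBEC3G, MFAP2) were chosen after their values were seen, as was the naming of groups. Non-members were named from the 4 of each list with the smallest adjusted p, and neighbours after their values were seen. Alternatives were RLE and upper-quartile scaling, DESeq2 1.42.0, limma-voom (limma 3.58.1), other filters and thresholds, the replicate block and leaving out each library; the counts of lists and neighbours without shCHAF1B-1 replicate 3, the restriction by start distance, the nearest RefSeq entry, ratios without a floor and member counts without that library were added after seeing the data. Python 3.11.15, pandas 2.3.3 and matplotlib 3.10.9 were used.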

Additional observations from a re-analysis of the deposited data

How the results depend on the processing

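The number of members moved most with the thresholds: 9 genes with a shGFP ceiling of 0.2 CPM, 79 with 0.5 CPM, 46 with a knockdown floor of 0.4 CPM, 14 with 1 CPM and 2 in the opposite direction. Asking under 0.1 and at least 0.2 RPKM gave 36 genes, of which 8 were shared with the 26. RLE, upper-quartile and library-total scaling each gave the same 26 genes. Leaving out 1 library can only relax the rule, and gave 26 to 39 genes, with 39 without shGFP replicate 1. The hairpin difference called 0 genes under every alternative fitted, also when 1 knockdown library was left out. It was not read from the fits without a shGFP library. Of the genes tested against shGFP, 4241 to 4900 rose and 3970 to 4577 fell when 1 library was left out. The VAV1 difference between the hairpins ran from -1.14 to 0.17 when 1 knockdown library was left out, and was above zero without shCHAF1B-1 replicate 3. DESeq2 gave an adjusted p for the hairpin difference to 5219 genes. A fit of only the groups compared has no mean of both hairpins, so that value was not computed.

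The replicate numbers in the labels did not pair the libraries: deviations of libraries with the same number correlated between -0.138 and 0.10. With the replicate number as a block, 0 genes differed between the hairpins, 4599 rose and 4314 fell, against 0, 4733 and 4498 without the block.

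Depth limits the control level of every member, since 3 counts are about 0.1 CPM and no member had over 19 shGFP counts; With shGFP at no less than 3 counts per library, POU2F2 and APOBEC3G were the members whose ratio moved by over 1.5 times when a library was left out. Without that floor the ratio of more members moved so far, DNAH3 from 29.4 to 155 without shGFP replicate 2 among them.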

Other observations

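Genes that are not protein-coding were held to the same thresholds, a count made after seeing the data. Of 6567 such genes near silent in shGFP, 16 met the knockdown floor in all 6 knockdown libraries (0.244%). In the opposite direction 0 met the thresholds, a count with no share, as for the protein-coding genes. The 16 were 9 long intergenic RNAs, 3 processed transcripts, 2 antisense RNAs and 2 pseudogenes. LINC01940 on chromosome 2 was at 0.0771, 0.0715 and 0.140 CPM in shGFP, 3.81, 3.01 and 2.96 CPM with shCHAF1B-1 and 2.82, 2.65 and 4.45 CPM with shCHAF1B-2. LINC00973 on chromosome 3 had a mean of 0.145 CPM with shGFP and 3.03 CPM after knockdown. The interferon pseudogene IFNWP19 on chromosome 9 had a mean of 0.146 CPM with shGFP and 1.00 CPM after knockdown. These 3 were picked after their values were seen.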
